A study of Homo sapiens with 6 samples.

Results

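Chemokines are small secreted proteins that guide the migration of leukocytes, and they act through receptors with 7 membrane-spanning segments that couple to inhibitory G proteins. Here 9 mouse genes of this system were followed in leukemic BaF3-T315I cells, among 22413 genes listed. Of these, 7 encode receptors (Ccr1, Ccr2, Ccr7, Ccr9, Ccrl2, Cxcr3 and Cxcr4) and 2 encode ligands (Ccl3 and Ccl4). They were taken by gene name, and all 9 were present. They were selected on the FPKM values of I13 against control, in which Ccr1 was among the few genes called, so the values of the 9 genes in that contrast are given as a description, with no test.

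BaF3 is a murine hematopoietic line, and BaF3-T315I cells are stably transfected with BCR-ABL carrying the T315I mutation, which blocks the binding of imatinib. I13 inhibits histone deacetylases, the enzymes that remove acetyl groups from histones. mRNA was sequenced in 3 control samples and in 3 samples given I13 at 1.1 µM over 48 h, and the controls carried the same BCR-ABL, so the line stands for a single transfected model. The sample labels give neither the vehicle nor the time of the control, nor whether the replicates were separate cultures, so errors and p-values measure the spread between these samples only. Levels are given as FPKM, the fragments on a gene scaled by its length and by the mapped fragments of the library.

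In myeloid cells, Ccr1 and Ccr2 are known for bringing monocytes and their precursors to inflamed tissue, Cxcr4 for holding progenitors in the bone marrow, and Ccr7 for homing to lymph nodes. Ccl3 and Ccl4 are inflammatory ligands whose genes lie side by side. Ccl3, Ccl5, Ccl6 and Ccl9 are among the murine ligands that bind Ccr1.

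Library totals recovered from the FPKM values lay between 16762119 and 17722950 fragments. Genes with a mean of at least 0.5 FPKM over the 6 samples were tested, 12163 in all, and 7 of the 9 chemokine system genes passed that filter. Calls come from limma on log2(FPKM + 0.1) and needed an adjusted p under 0.05 together with a log2 fold change of 0.58 or more in size. Log2 fold changes on this scale understate the change of low genes. Same-numbered control and I13 samples deviated together weakly (Pearson's r of 0.15 to 0.30), so a second fit held the replicate number as a block. Csf2rb, taken here as a marker of the labelled cell line, encodes the beta chain that serves the interleukin-3 receptor. It lay between 239 and 463 FPKM in the controls and between 448 and 838 FPKM after I13. Of the B lineage markers, the pre-B cell signaling gene Cd79a lay between 14.1 and 27.5 FPKM. Each of the B lineage factors Pax5 and Ebf1 had 1 fragment in the 6 libraries together, so Pax5 and Ebf1 are in effect absent. Of the other B lineage markers, Cd79b lay between 3.57 and 6.94 FPKM and Ptprc between 10.2 and 15.0 FPKM. Vpreb1 and Igll1 stayed at or below 0.107 FPKM.

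Ccr1 (ENSMUSG00000025804), the receptor for Ccl3 and Ccl5, had 1.18, 0.601 and 1.16 FPKM across control replicates 1, 2 and 3, against 5.95, 5.52 and 7.26 FPKM across the same numbers with I13. The groups were far apart, and the lowest I13 sample exceeded the highest control several times over. The means were 0.979 ± 0.328 FPKM in the control and 6.24 ± 0.907 FPKM after I13 (SD, n = 3 each), a ratio of 6.37. Within same-numbered pairs the I13 sample was 5.06, 9.19 and 6.25 times its control. The log2 fold change was 2.60 (standard error 0.26), and it lay between 2.31 and 2.74 when any 1 of the 6 samples was left out and between 2.55 and 2.63 under 3 other scalings of the libraries. Ccr1 had 147 fragments over the 3 controls and 919 after I13, so counting error was small against the difference.

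Ccr2 (ENSMUSG00000049103), the receptor for the monocyte chemoattractant Ccl2, had the highest mean of the 9 genes in both groups, although Ccl3 exceeded it in I13 replicate 3. Its level was 10.42, 13.01 and 11.94 FPKM across control replicates 1, 2 and 3, against 19.86, 26.71 and 19.08 FPKM across the same numbers with I13. All I13 samples lay above all controls, and replicate 2 was the highest in both groups. The means were 11.8 ± 1.30 and 21.9 ± 4.20 FPKM (SD, n = 3 each), and the log2 fold change was 0.88 (standard error 0.15). The pairs gave ratios of 1.91, 2.05 and 1.60. Ccr1 was thus the member with the larger ratio and Ccr2 the one with the higher level, and Ccr1 amounted to between 0.0462 and 0.113 of the FPKM of Ccr2 in the controls and between 0.207 and 0.380 of it after I13.

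**Figure D1:**
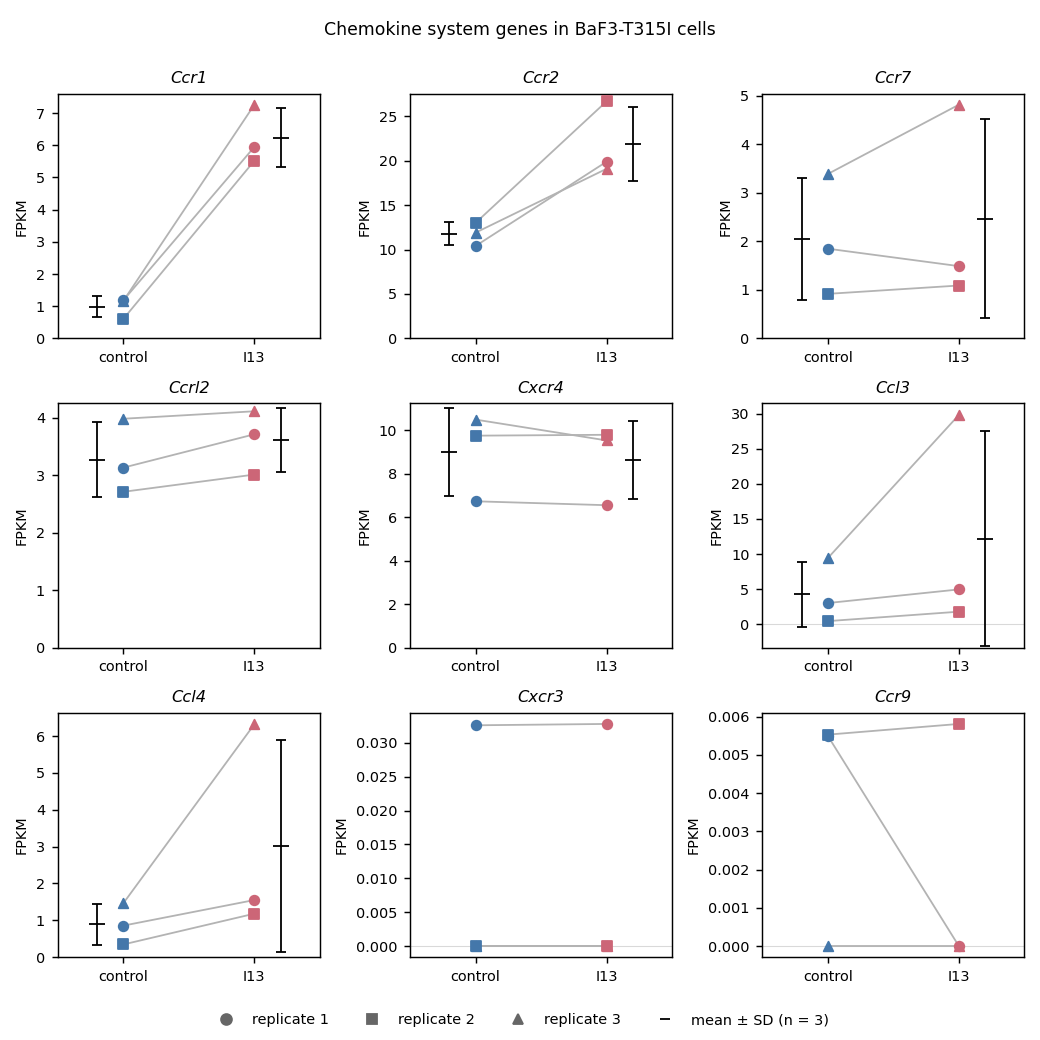
Level of each of the 9 chemokine system genes in FPKM (y axis, scale set for each gene) in the control and I13 samples (x axis). Symbols mark the replicate numbers, lines join same-numbered samples, and bars give the mean ± SD of 3 samples, which is left out for Cxcr3 and Ccr9. In the Ccr9 panel control replicates 1 and 2 coincide. Ccr1 and Ccr2 are higher in all 3 I13 samples than in any control, whereas in Ccl3 and Ccl4 replicate 3 after I13, at 29.8 and 6.32 FPKM, stands far above the other samples.

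Ccl3 (ENSMUSG00000000982), an inflammatory ligand, varied more between samples of a group, by the ratio of highest to lowest, than the other 6 genes tested. Its level was 3.02, 0.444 and 9.41 FPKM across control replicates 1, 2 and 3, against 4.96, 1.79 and 29.8 FPKM across the same numbers with I13. The groups overlapped, with the highest sample 21.2 times the lowest among the controls and 16.6 times the lowest after I13. Set beside its same-numbered control, however, each I13 sample was higher, at 1.64, 4.03 and 3.16 times. The log2 fold change was 1.38 (standard error 1.25), and it was 0.29 without I13 replicate 3, 0.27 without control replicate 2 and 2.34 without control replicate 3. The lowest value, in control replicate 2, rested on 6 fragments, with an exact Poisson 95% interval of 0.163 to 0.967 FPKM that covers counting error only.

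Ccl4 (ENSMUSG00000018930), an inflammatory ligand encoded beside Ccl3, had the same order of samples as Ccl3 within each group. Its values were 0.855, 0.344 and 1.46 FPKM in the controls and 1.55, 1.18 and 6.32 FPKM after I13, in the order of the replicate numbers. Replicate 3 was the highest and replicate 2 the lowest of each group, and the groups overlapped between control replicate 3 and I13 replicate 2. The pairs gave ratios of 1.81, 3.42 and 4.32, and the log2 fold change of 1.45 (standard error 0.69) became 0.73 without I13 replicate 3. With 31 fragments over the 3 controls and 104 after I13, Ccl4 was the least well counted of the 7 genes. The ratio of Ccl3 to Ccl4 itself changed with the replicate number, from 1.29 and 1.52 in replicate 2 through 3.53 and 3.21 in replicate 1 to 6.44 and 4.71 in replicate 3, control and I13 respectively.

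Ccr7 (ENSMUSG00000037944), the receptor for the lymph node chemokines Ccl19 and Ccl21, was listed at 1.85, 0.918 and 3.39 FPKM in the controls and at 1.49, 1.09 and 4.82 FPKM after I13. The groups overlapped over most of their ranges, the pairs gave ratios of 0.805, 1.18 and 1.42, and the log2 fold change of 0.14 (standard error 0.62) became -0.47 without I13 replicate 3 and -0.31 without control replicate 2. Ccr7 therefore differed by replicate number much more than by treatment.

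Ccrl2 (ENSMUSG00000043953), an atypical receptor that binds the attractant chemerin without G protein signaling, held between 2.71 and 3.98 FPKM in the controls and between 3.01 and 4.11 FPKM after I13. Each I13 sample was slightly above its same-numbered control, at 1.19, 1.11 and 1.03 times, but the ranges of the groups overlapped almost entirely. On the log2 scale the change was 0.15 (standard error 0.18).

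Cxcr4 (ENSMUSG00000045382), the receptor for the marrow chemokine Cxcl12, was listed at 6.74, 9.76 and 10.5 FPKM in the controls and at 6.56, 9.80 and 9.54 FPKM after I13. Replicate 1 was low in both groups, and the pairs gave ratios of 0.973, 1.00 and 0.905. Its log2 fold change was -0.06 (standard error 0.22), the only one below 0 among the 7 genes, and it ran from -0.25 to 0.13 when 1 sample was left out.

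Cxcr3 (ENSMUSG00000050232), the receptor for interferon-induced ligands on T cells, and Ccr9 (ENSMUSG00000029530), the receptor for the thymic and gut chemokine Ccl25, were not detectable at this depth beyond single fragments. Cxcr3 had 1 fragment in control replicate 1, 1 in I13 replicate 1 and 0 in the other libraries, and a count of 0, which allows up to 3 fragments, leaves room for at most 0.0978 to 0.103 FPKM. Ccr9 had 1 fragment in control replicates 1 and 2 and in I13 replicate 2, and 0 in the other libraries, with a limit of 0.0165 to 0.0174 FPKM. No fold change is given for these genes.

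Ordered by their mean level, the controls ran from Ccr2 (11.8 FPKM) through Cxcr4 (9.01), Ccl3 (4.29), Ccrl2 (3.27), Ccr7 (2.05), Ccr1 (0.979) and Ccl4 (0.887) to Cxcr3 and Ccr9. The ranges of each neighboring pair in this order overlapped, except for the step from Ccl4 down to Cxcr3. After I13 the order was Ccr2 (21.9 FPKM), Ccl3 (12.2), Cxcr4 (8.63), Ccr1 (6.24), Ccrl2 (3.61), Ccl4 (3.01) and Ccr7 (2.47). The ranges of neighbors again overlapped, except between Ccr1 and Ccrl2 and between Ccr7 and Cxcr3. Ccr1 went from above 51.6% of all listed genes by mean level in the control to above 70.3% after I13, and Ccr2 from 79.9% to 88.0%.

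Of the 7 genes tested, only Ccr1 was called without the block, where 0.0411% of all genes tested were called, 0.0329% higher and 0.00822% lower after I13. With the block Ccr1, Ccr2 and Ccl3 were called, where 1.89% of all genes were, 1.36% higher and 0.526% lower. Leaving out any 1 of the 6 samples left 0 genes called, Ccr1 included. Because this contrast chose the genes, nothing is read from these counts. The same holds for the counts of overlap and of pairs below, which use the same contrast. The control and I13 ranges did not overlap in 2 of the 7, Ccr1 and Ccr2, and the other 5 overlapped. Ccr1 and Ccr2 lay higher after I13 without overlap, against 9.82% of all genes tested. Over all genes tested 25.2% did not overlap, and 15.4% lay lower after I13. All 3 same-numbered pairs were higher after I13 in 5 of the 7 (Ccr1, Ccr2, Ccrl2, Ccl3 and Ccl4), against 24.1% of all genes tested, with 27.3% lower in all pairs. Replicate 2 was the lowest of both groups in 5 of the 7 (Ccr1, Ccr7, Ccrl2, Ccl3 and Ccl4), against 13.4%.

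The 7 genes differed in how their variation was split, as the plot of the sums of squares shows. For Ccr1 and Ccr2, 94.7% and 85.8% of the sum of squares of log2(FPKM + 0.1) over the 6 samples lay between control and I13, on 1 degree of freedom. For Ccr7, Cxcr4, Ccrl2 and Ccl3, on the other hand, 95.1%, 97.5%, 85.4% and 83.6% lay between the replicate numbers, on 2 degrees of freedom. Ccl4 was intermediate, with 39.6% between the groups and 55.5% between the replicate numbers. Over all genes tested the mean shares were 32.8% and 44.2%. The contrast of control and I13 chose the 7 genes, so their shares between the groups are a description only. Shares on 2 degrees of freedom and on 1 are not on an equal footing. In Ccr7, Ccrl2, Ccl3 and Ccl4, 4 of the 7, replicate 2 was the lowest and replicate 3 the highest sample in both groups. The share over all genes tested was 5.72%. What a replicate number stands for is not stated in the labels, and its part in these levels was not tested.

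**Figure D2:**
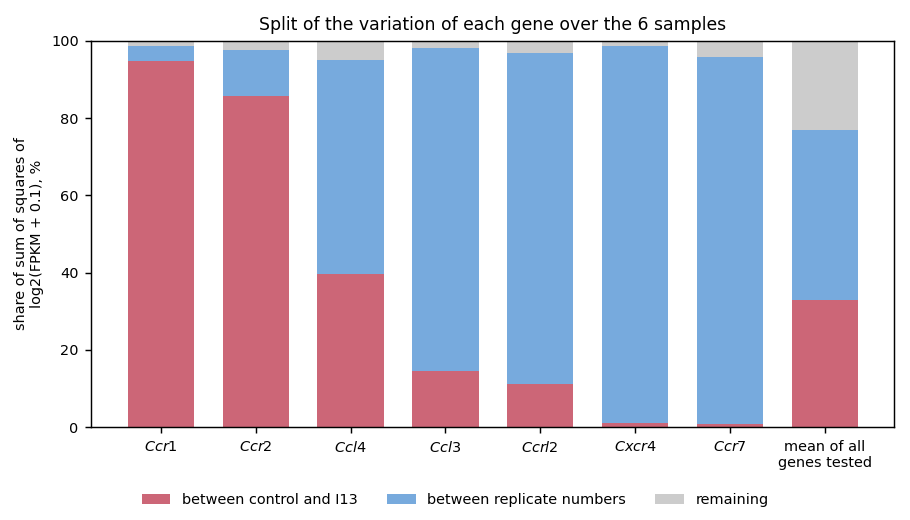
Share of the sum of squares of log2(FPKM + 0.1) over the 6 samples (y axis, %) that lies between control and I13, between the 3 replicate numbers, or remains, for the 7 chemokine system genes tested and as the mean of all genes tested (x axis). For Ccr1 and Ccr2 94.7% and 85.8% lies between control and I13, the contrast that chose the genes. Ccr7 and Cxcr4 vary almost entirely with the replicate number.

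The 5 genes most like Ccr1 over the 6 samples, by Pearson's r of log2(FPKM + 0.1) among 10869 genes with a mean of at least 1 FPKM, were Ctsc (r = 0.993), Chmp2b (0.992), Cast (0.991), Pnpla8 (0.990) and Gab3 (0.987). These values describe 6 samples in 2 groups that share their libraries, and mainly follow the step between the groups. Ctsc, which encodes the lysosomal protease cathepsin C, had a mean of 30.5 ± 4.15 FPKM in the control and 52.5 ± 2.45 FPKM after I13 (SD, n = 3 each). Gab3, a signaling adaptor, went from 0.621 ± 0.135 to 1.46 ± 0.265 FPKM (SD, n = 3 each). The ratios of the means, 1.72 for Ctsc, 1.20 for Chmp2b, 1.66 for Cast, 1.44 for Pnpla8 and 2.35 for Gab3, were all smaller than the 6.37 of Ccr1.

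Other genes of chemotaxis were taken from 4 lists and, not being among the 9, were tested in the same fit. Of the chemokine ligands outside the 9, 36 were listed, 12 were analysed and 6 were tested. Without the block none of the 6 was called by limma, and 4 had an unadjusted p below 0.05, against 18.6% of all genes tested. With the block 1 was called, Ccl6. The median log2 fold change of the 6 was 0.97, beside -0.0053 over all genes tested. The log2 fold change was above 0 in 5 of the 6, against 49.2% of all genes tested.

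Ccl5, a ligand of Ccr1, was listed at 0.882, 0.354 and 0.768 FPKM in the controls and at 3.25, 4.10 and 1.67 FPKM after I13. All I13 samples lay above all controls, on 34 and 149 fragments. Ccl5 was not called in either fit, with a log2 fold change of 2.00 ± 0.41 (SE) and adjusted p from limma of 0.109, or 0.0648 with the block. Ccl6, another ligand of Ccr1, was listed at 1.70, 0.537 and 1.99 FPKM in the controls and at 5.44, 1.93 and 5.31 FPKM after I13. The groups overlapped slightly, since I13 replicate 2 lay below control replicate 3, and the log2 fold change was 1.56 (standard error 0.55). For Ccl6 limma gave an adjusted p of 0.205 without the block and 0.0312 with it, where Ccl6 was called higher after I13. Without control replicate 2 the log2 fold change of Ccl6 was 1.02.

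Ccl9, also a ligand of Ccr1, was listed at 0.3521, 0.03725 and 0.7641 FPKM in the controls and at 1.044, 0.7837 and 1.501 FPKM after I13. Its groups were separated narrowly. The value in control replicate 2 rested on 2 fragments, and Ccl9 had 62 fragments over the 3 controls and 176 after I13. A log2 fold change of 1.64 with a standard error of 0.68 gave limma an adjusted p of 0.257 without the block and 0.0979 with it, and became 0.91 without control replicate 2. Ccl25, the ligand of Ccr9, was lower in each I13 sample than in any control, at 1.59, 2.14 and 1.91 FPKM in the controls and 1.22, 1.51 and 1.19 FPKM after I13, with a log2 fold change of -0.49 ± 0.19 (SE) and a limma adjusted p of 0.240. Cx3cl1, which encodes a membrane-bound chemokine, had a log2 fold change of 0.38, or 0.12 without I13 replicate 2, and a limma adjusted p of 0.503. Xcl1, named after its values were seen, was too low to be tested, with 2 fragments over the 3 controls and 24 after I13.

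**Figure D3:**
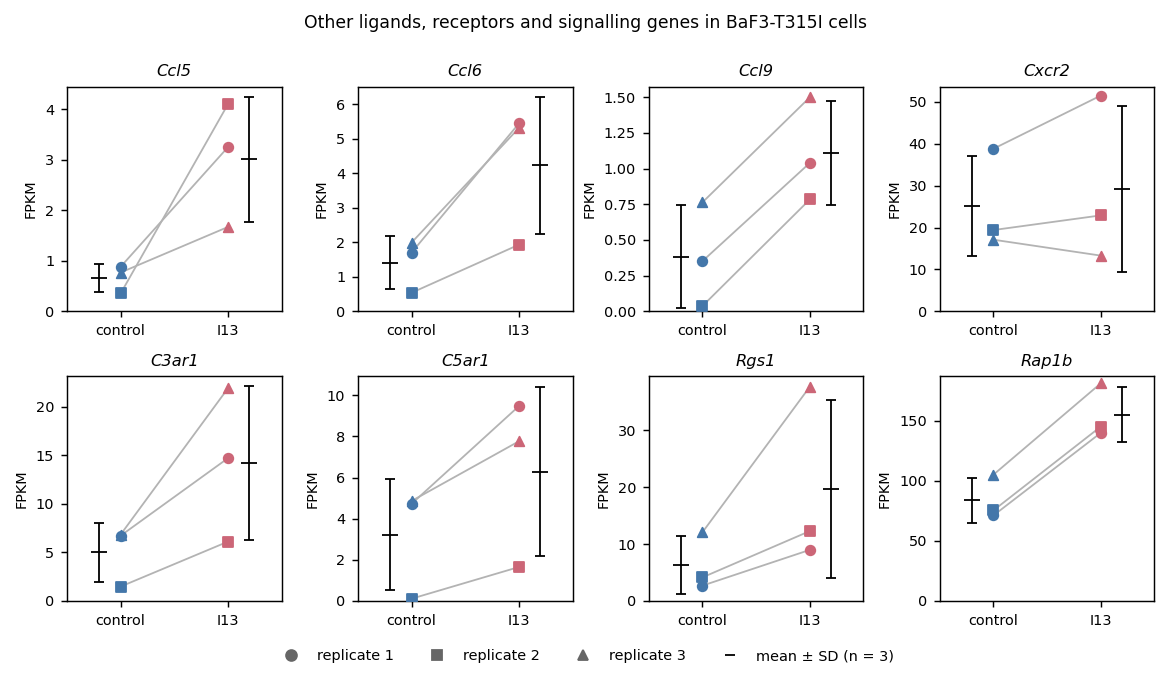
Level in FPKM (y axis, scale set for each gene) of 3 ligands of Ccr1, 3 other receptors and 2 signaling genes in the control and I13 samples (x axis), with symbols for the replicate numbers, lines between same-numbered samples and bars for the mean ± SD of 3 samples. In Ccl5, Ccl9 and Rap1b the groups do not overlap, while in Cxcr2 replicate 1 is the highest sample of both groups, at 38.8 and 51.5 FPKM.

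Of the 17 chemokine receptors outside the 9, 15 were analysed and only Cxcr2 and Ccr4 passed the filter on low values. Neither was called in either fit, and Ccr4 had an unadjusted p below 0.05 in limma, against 18.6% of all genes tested. Cxcr2, the receptor for neutrophil-attracting ligands, was at 38.8, 19.4 and 17.1 FPKM in the controls and at 51.5, 22.9 and 13.3 FPKM after I13. It was more abundant than any of the 9 genes in each control and in I13 replicate 1, but not in I13 replicates 2 and 3. Its groups overlapped and 93.5% of its sum of squares lay between the replicate numbers. Ccr4, a receptor best known on T helper cells, was listed at 8.26, 7.04 and 8.49 FPKM in the controls and at 5.96, 6.37 and 5.76 FPKM after I13. All I13 samples lay below all controls, with a log2 fold change of -0.39 ± 0.11 (SE) and limma adjusted p of 0.155 without the block and 0.104 with it. The other 13 receptors analysed did not exceed 0.255 FPKM in any sample.

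Receptors for other attractants, such as complement fragments and lipids, made a list of 19, of which 14 were analysed and 9 tested. All 9 had a log2 fold change above 0, against 49.2% of all genes tested, and their median was 0.56. None was called without the block, and 1 had an unadjusted p below 0.05 in limma, against 18.6% of all genes tested. With the block C3ar1, the receptor for complement C3a, was called. It was listed at 6.72, 1.48 and 6.84 FPKM in the controls and at 14.7, 6.11 and 21.9 FPKM after I13, so that I13 replicate 2 lay below 2 of the controls. The log2 fold change of C3ar1 was 1.58 ± 0.67 (SE), and it became 0.88 without control replicate 2. The limma adjusted p was 0.265 without the block and 0.0354 with it, where C3ar1 was called higher after I13. C5ar1 and C5ar2, the receptors for complement C5a, had log2 fold changes of 1.57 (standard error 1.27) and 1.26 (standard error 0.69), with adjusted p from limma of 0.540 and 0.368. Without control replicate 2 the log2 fold changes were 0.06 and 0.54. Ptafr and S1pr1, the receptors for platelet-activating factor and sphingosine 1-phosphate, had log2 fold changes of 0.66 and 0.21, with limma adjusted p of 0.543 and 0.438, and that of Ptafr was 0.20 without I13 replicate 3. C5ar1 was at 0.110 FPKM in control replicate 2 and at 4.72 and 4.86 FPKM in the other controls.

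The list of genes that carry the signal of chemokine receptors held 43, of which 42 were analysed and 40 tested. None was called without the block, and 14 had an unadjusted p below 0.05 in limma, against 18.6% of all genes tested. Directions of the 40 were nearly even, with 21 higher and 19 lower after I13 and a median log2 fold change of 0.04. Over all genes tested 49.2% were higher. With the block Rap1b and Rgs1 were called, both higher. Rap1b, a small GTPase that drives integrin adhesion, was listed at 71.1, 75.3 and 105 FPKM in the controls and at 139.8, 145 and 181 FPKM after I13. Its groups did not overlap, and a log2 fold change of 0.90 ± 0.17 (SE) gave limma adjusted p of 0.108 without the block and 0.0205 with it. Its relative Rap1a had a log2 fold change of 0.55 ± 0.10 (SE) and limma adjusted p of 0.106 without the block and 0.0478 with it, short of the fold change threshold.

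Rgs1, which speeds up the switching off of the G proteins used by chemokine receptors, was listed at 2.70, 4.15 and 12.1 FPKM in the controls and at 8.99, 12.3 and 37.7 FPKM after I13. Replicate 3 was the highest of each group, as it was for Ccl3 and Ccl4, and the groups overlapped. Rgs1 had a log2 fold change of 1.63 ± 0.67 (SE), which became 1.02 without I13 replicate 3. The limma adjusted p was 0.255 without the block and 0.0131 with it, where Rgs1 was called higher after I13. Rgs2, of the same family, had a log2 fold change of 0.58, or -0.04 without I13 replicate 3, and a limma adjusted p of 0.606. The most abundant signaling genes by the mean over all 6 samples, Coro1a, Rac2 and Cdc42, had log2 fold changes of -0.14, 0.39 and 0.16, with adjusted p from limma of 0.679, 0.233 and 0.324.

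**Figure D4:**
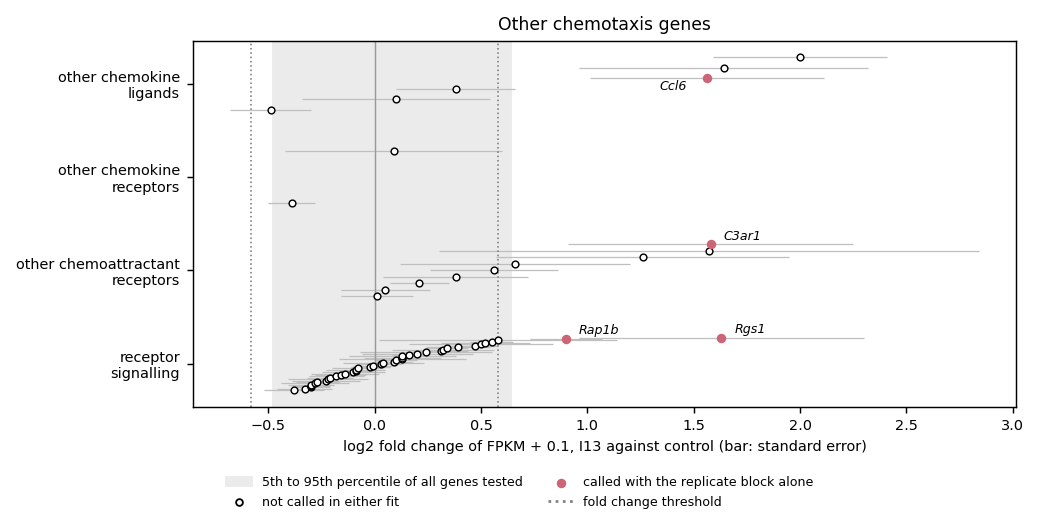
Log2 fold change of I13 against control on the FPKM + 0.1 scale (x axis), with a bar for the standard error. Points are the tested genes of the 4 lists of other chemotaxis genes (y axis). Dotted lines mark the fold change threshold of 0.58. The gray band of -0.48 to 0.64 runs from the 5th to the 95th percentile of all genes tested. Filled points are the genes called with the replicate block alone, Ccl6, C3ar1, Rap1b and Rgs1, and the 40 signaling genes run from -0.38 to 1.63.

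In the mouse Ccr1 is known to lie in a cluster with Lztfl1, Ccr9, Fyco1, Cxcr6, Xcr1, Ccr1l1, Ccr3 and Ccr2, with Sacm1l farther out. Of those outside the 9, Sacm1l, Lztfl1 and Fyco1 passed the filter. Sacm1l, a phosphatase gene, was listed at 10.04, 10.79 and 10.49 FPKM in the controls and at 15.48, 13.44 and 15.22 FPKM after I13, with a log2 fold change of 0.49 ± 0.10 (SE) and a limma adjusted p of 0.109. Those of Lztfl1 and Fyco1 were 0.59 and 0.02, with adjusted p from limma of 0.263 and 0.973, and that of Fyco1 turned negative with quantile normalization. The receptor genes Ccr1l1, Xcr1, Ccr3 and Cxcr6 stayed near 0, with 1 fragment in all for Ccr1l1, 4 for Xcr1, 4 for Ccr3 (none of them in the control), and 11 and 13 fragments for Cxcr6 in the control and I13 samples. Ccl3 and Ccl4 are known to lie in a cluster with Ccl5, Ccl6 and Ccl9, which had log2 fold changes of 2.00, 1.56 and 1.64 and of which Ccl6 was called, with the block alone. In the same cluster Taf15, a gene for an RNA-binding protein, had a log2 fold change of 0.07 (adjusted p = 0.839 from limma), while Heatr9 had 1 fragment in the controls and 6 after I13.

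Ccr1, Ccr2, Ccl3 and C3ar1 are also read as genes of monocytes and macrophages, and the level of 1 such marker, Adgre1, was called higher after I13 with the block, while none was called without it. Of 8 macrophage and monocyte markers 6 were analysed, and their summed level ran from 23.0 to 46.5 FPKM in the controls and from 53.0 to 87.2 FPKM after I13. Most of it was Adgre1, the F4/80 antigen, at 37.6, 18.1 and 40.1 FPKM in the controls and 72.1, 44.1 and 76.7 FPKM after I13 (log2 fold change 1.05, limma adjusted p of 0.180 without the block and 0.0308 with it, and log2 fold change 0.68 without control replicate 2). Lyz2 was at 1.41, 1.77 and 1.47 FPKM in the controls and at 2.33, 4.08 and 2.04 FPKM after I13, without overlap. Its log2 fold change was 0.76, with a limma adjusted p of 0.202 without the block and 0.0796 with it. Cd68, of lysosomes, overlapped between the groups, with a limma adjusted p of 0.404. The defining markers Csf1r, Mrc1 and Ly6c2 stayed at or below 0.0702 FPKM in all samples of both groups. The summed level of the 3 interleukin-3 receptor genes ran from 444 to 885 FPKM in the controls and from 909 to 1652 FPKM after I13. Of these, Csf2rb and Csf2rb2 were called higher with the block, with log2 fold changes of 0.83 and 1.02. Their limma adjusted p was 0.0313 and 0.0312 with the block, and 0.220 and 0.165 without it. The summed level of 6 T cell markers reached 0.288 FPKM in the controls and 0.475 FPKM after I13 at most. The summed levels overlapped between the groups for 7 B lineage markers (27.8 to 43.8 and 42.2 to 47.8 FPKM), 5 neutrophil markers, chiefly Prtn3 (3.24 to 5.77 and 3.65 to 8.55), 7 mast cell and basophil markers, chiefly Gata2 (195 to 236 and 147 to 217) and 3 fibroblast and endothelium markers, chiefly Pecam1 (35.5 to 42.4 and 40.2 to 46.0). These sums rest on few genes, and that of the B lineage was chiefly Cd79a and Ptprc. The neutrophil markers Mpo, Elane, Camp and Ltf stayed at or below 0.224 FPKM in any sample. In the mast cell and basophil list Cpa3 and Hdc reached 9.39 and 2.57 FPKM. Its other markers Mcpt8, Fcer1a, Ms4a2 and Tpsb2 stayed at or below 0.315 FPKM, and Col1a1 and Cdh5 at or below 0.130 FPKM. The part of such markers in the levels of the chemokine system genes was not tested, and in these bulk samples more cells expressing a gene and more RNA per cell cannot be told apart.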

How the data were processed

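mRNA of BaF3-T315I cells was measured in 3 control and 3 I13 samples, grouped and numbered by the labels. The authors deposited FPKM values per gene and sample, 1 column per sample, so that 0 such columns had no sample. The labels' processing notes name Trimmomatic, HISAT2, Cufflinks, HTSeq and the build hg38, without roles or versions, and call the organism human, whereas every identifier is a mouse gene, so no coordinates or sequences are given. Genes of the lists with no row were not analysed here, and 1 receptor is not reported here.

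Whole fragments and gene lengths were solved from the FPKM values within 0.03 fragments for all 22413 genes, which gave the library totals (16762119 to 17722950). Intervals and limits for counts of 0 (3 fragments) cover counting error only. limma 3.58.1 in R 4.3.3 (eBayes with a trend) was fitted to log2(FPKM + 0.1) of the 12163 genes with a mean of at least 0.5 FPKM, with Benjamini-Hochberg adjustment. The fit was also run on simulated counts. These held no difference between replicate numbers, so that check does not cover such differences. The thresholds on p (0.05) and log2 fold change (0.58) follow the study's methods, which name no test.

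Deviations of same-numbered samples from their group means correlated across genes at 0.15, 0.30 and 0.22, against -0.26 to 0.05 for other numbers. Deviations cancel out within a group, so the values for same and other numbers are not independent of each other. On these weak correlations the replicate numbers, taken from the labels, were treated as pairing the samples. Alternatives were other pseudocounts, filters, scalings and eBayes settings, the replicate block, voom on the recovered fragments and leaving out each sample or pair. Named were the 9 genes, and from each list the genes called in either fit, the 3 most abundant, the 4 with the largest change, the chromosome neighbors and the 5 genes most like Ccr1. The 9 genes, the lists and the tests were chosen with earlier results of these data known. Python 3.11.15 and matplotlib 3.10.9 were used for tables and figures.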

Additional observations from a re-analysis of the deposited data

How the results depend on the processing

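The log2 fold change of Ccr1 was 1.88 with a pseudocount of 1, against 2.60, since that pseudocount shrinks low values. Those of the other chemokine system genes tested moved by less than 1 SD between replicates of the same gene under each setting. That yardstick is wide for genes that vary between replicates, so it does not show stability. When 1 sample was left out, Ccl3 ran from 0.27 to 2.34, and Ccr7 (-0.47 to 0.58) and Cxcr4 (-0.25 to 0.13) changed sign. Without any filter on low values, or with eBayes without a trend, 5 genes were called higher and 3 lower, 8 in all, against 4, 1 and 5. With a pseudocount of 0.01, median-ratio scaling or quantile normalization, 2 were called higher and 0 lower. With the replicate block 166 genes were called higher and 64 lower (230 in all), and with voom on recovered fragments and the block 375 and 128 (503). In the blocked fit without replicate 1 these counts were 78, 5 and 83, and without replicate 2 or 3 they were 0, where limma left 1638 and 3160 genes under an unadjusted p of 0.05. Leaving out any 1 sample gave 0 to 0 calls, and limma then had 1478 to 2482 genes under an unadjusted p of 0.05. These fits hold fewer samples.

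Of the other chemokine ligands 1 was called with the replicate block and 3 with voom and the block (Ccl5, Ccl6 and Ccl9). Of the other attractant receptors 1 was called with the block and also without replicate 1, and 3 with voom and the block (C3ar1, C5ar1 and C5ar2). Of the signaling genes 2, 2 and 3 were called in these fits, the third being Rgs2. No other setting called a gene of these lists. Among 26 single genes named outside the 9, 478 of 518 comparisons kept direction and side of the threshold, 26 passed it, all under the block, and 14 turned direction. These were Cxcr2 (-0.06 with the block and without replicate 1), Fyco1 (-0.05 with quantile normalization, and -0.17 and -0.02 with the block and without replicate 1 or 2), and, when 1 sample was left out, Cxcr2 (-0.43 to 0.55), Fyco1 (-0.08 to 0.15), Taf15 (-0.06 to 0.20), Rgs2 (-0.04 to 0.94) and Coro1a (-0.25 to 0.01). The cause was not tested. Depth limits the levels that rest on few fragments, as in the controls of Ccl4.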
